A study of Oryza sativa with 35 samples.

Results

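6 libraries of the chilling-tolerant rice line DC90, of 35 libraries sequenced in all, were compared: 3 taken at 96 h, after 72 h of chilling and 24 h of recovery, and 3 taken at 0 h, before chilling began. They were chosen by their labels alone, and the question they address is which transcripts are away from the control level a day after the plants have left the cold. Because 96 h is a whole number of days after 0 h, both groups fall at the same hour of the day, although the plants at 96 h are also older, and none of the libraries is from unchilled plants of their age.

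DC90 is a near-isogenic line that carries the CTS-12 locus of the wild rice Oryza rufipogon in the background of the indica cultivar 9311, and its genotype is labelled chilling tolerant. Seedlings of 30 days were chilled at 10 °C by day and 8 °C by night for 3 days, then returned to normal growth conditions, and whole plants were harvested at 0, 12, 24, 72, 84 and 96 h. The same time course was run on 9311, the chilling-sensitive parent, whose 3 libraries at 96 h and 3 at 0 h are set beside those of DC90, with which they share no library. DC90 is 1 line, so effects of the wild segment and of anything else that sets this line apart from 9311 cannot be told apart.

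Chilling slows enzymes, stiffens membranes and lets calcium into the cell, and plants answer it within hours through the CBF/DREB1 transcription factors and the hormones abscisic acid (ABA) and jasmonate. Many of these genes are also regulated by the clock, by touch and wounding, and by feedback from their own products: ABA breakdown enzymes and JAZ proteins, for example, are made in response to the hormone whose action they limit. Recovery is the phase in which these responses are switched off and growth, photosynthesis and nutrient uptake resume.

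The 6 DC90 libraries held between 38052780 and 68927044 counted reads, with the largest total in replicate 3 at 0 h. Levels are given as CPM (counts scaled to a common library size, with TMM factors), for 96 h replicates 1, 2 and 3 and then 0 h replicates 1, 2 and 3. One library stood apart from the others. In DC90 0 h replicate 3 most root markers were far above both other 0 h libraries. Lsi1, the silicon influx channel of roots, was at 363 CPM, against 48.5 CPM in replicate 1 and 50 CPM in replicate 2. NAR2.1, a partner protein of nitrate transporters, was at 200 CPM, against 1.83 CPM and 1.66 CPM. IRT1, another root marker, was at 1.3 CPM, against 1.08 CPM and 0.249 CPM. Summed over 7 root markers, the level ran from 89.6 to 137 CPM at 96 h and from 76.9 to 1080 CPM at 0 h. Summed over 6 leaf markers, it ran from 10800 to 15700 CPM at 96 h and from 24200 to 36000 CPM at 0 h, with no overlap, yet none of the 6 leaf markers was called by edgeR, DESeq2 or limma, 1 had an unadjusted p under 0.05, and their median log2 fold change was -1.16, against -0.16 in 9311. Lhcb1, an antenna protein of photosystem II with near-identical copies in the genome, was at 1220, 12300 and 6.58 CPM in the 3 libraries at 96 h and is treated as uncertain. In bulk RNA of whole plants, fewer cells of a type and less RNA per cell cannot be told apart. The part of these markers in the results below was not tested, and the list counts were computed again without 0 h replicate 3.

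**Figure D1:**
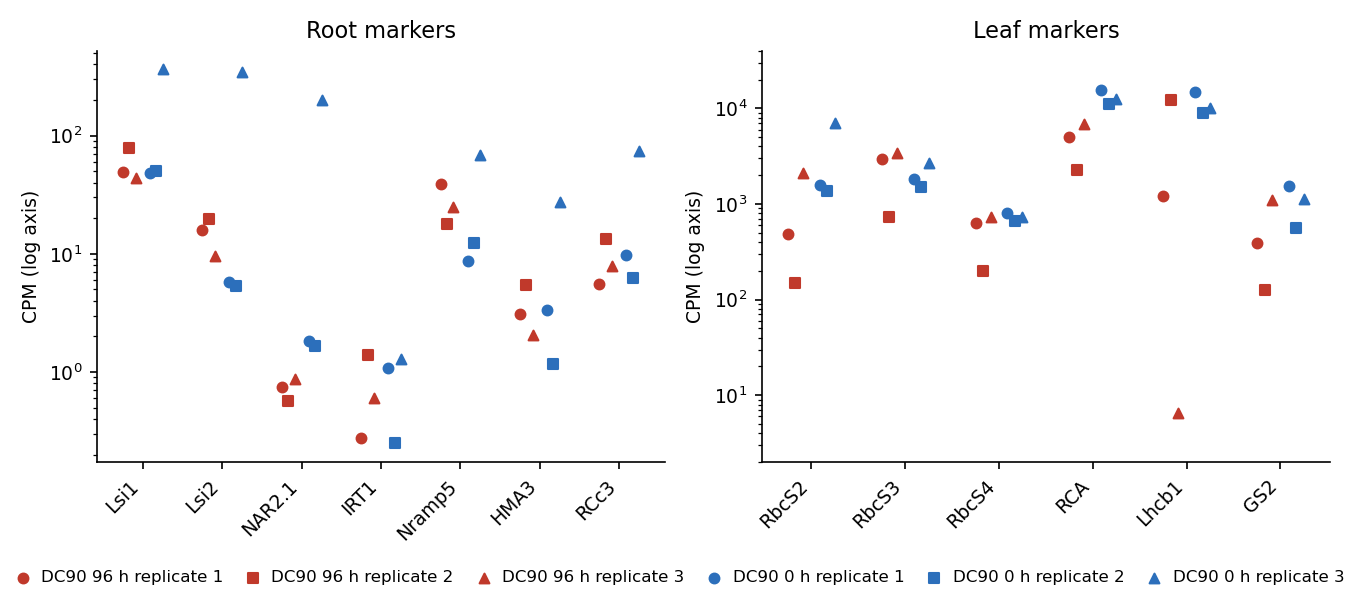
Root markers (left) and leaf markers (right) in the 6 DC90 libraries; each point is 1 library, the vertical axis is CPM on a log axis, red is 96 h and blue is 0 h, and the shape gives the replicate. The blue triangles of 0 h replicate 3 lie above the other libraries for most root markers (363 CPM for Lsi1), and Lhcb1 is at 6.58 CPM in 96 h replicate 3.

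What differed from the control after 24 h of recovery was mostly lower, not higher. With thresholds of 2 for the size of the log2 fold change and 0.001 for the adjusted p, 254 loci differed between 96 h and 0 h (1.11% of the 22961 loci tested), and 243 of them, or 95.7%, were lower at 96 h (1.06% of loci tested) while 11 were higher (0.0479%). These 254 are called DEGs here, and every adjusted p comes from the quasi-likelihood test of edgeR, corrected by Benjamini-Hochberg across all 22961 loci. At an adjusted p of at most 0.05 with no limit on the fold, 1089 loci were lower (4.74%) and 368 higher (1.6%), and "rose", "fell", "higher" and "lower" below refer to that call. By limma the split at 0.05 was 979 lower and 624 higher on log2(FPKM + 1), and 965 lower and 540 higher on log2(FPKM + 0.1). The median over all loci tested was -0.02 on the log2 scale in DC90 and in 9311, a value that TMM scaling holds near 0, and 4260 loci had an unadjusted p under 0.05 in DC90.

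The falls were large. The median log2 fold change of the 243 lower DEGs was -3.58, 89 of them were at least 16-fold lower, and 5 had no more than 3 counts in each 96 h library. The 11 higher DEGs had a median of 3.21, and 2 were at least 16-fold higher. For all 243 lower DEGs the 3 libraries at 96 h lay below the 3 at 0 h, and for all 11 higher DEGs they lay above, whereas 13% of all loci tested were separated downwards and 10.1% upwards. All 254 kept an adjusted p of at most 0.05 and their direction in each of 6 fits that left out 1 library. The DEGs were chosen on these same 6 libraries, which favours both the separation and the calls at 0.05. These values describe the DEGs and test nothing. The number past the DEG thresholds depended more on single libraries: it was 139 without 0 h replicate 1, 95 without 96 h replicate 1, 111 without 96 h replicate 2 and 111 without 96 h replicate 3. A fit of these 6 libraries alone, which estimates the spread from 4 residual degrees of freedom in place of 23, left 2 loci past both DEG thresholds but kept 224 of the 243 lower and 9 of the 11 higher DEGs at an adjusted p of at most 0.05.

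Over the time course, the lower set was at its lowest in recovery and not in the cold. The median CPM of the 243 loci was 5.08, 5.80 and 4.76 in the 3 libraries at 96 h, against 104, 63.2 and 36.4 in the 3 at 0 h. The 0 h libraries thus differed among themselves by more than the 96 h libraries, with replicate 3 the lowest, and the groups did not overlap. The median of the group means was 67.5, 47.8, 49.2, 24.3, 6.95 and 5.6 CPM in sequence over the sampling times of 0, 12, 24, 72, 84 and 96 h. Of the 243 loci, 140 had their highest DC90 mean at 0 h and 177 their lowest at 96 h. Against 72 h, the end of chilling, 184 of the 243 were called lower at 96 h, 6 higher and 53 neither. Over all loci tested, 5162 were lower and 4864 higher at 96 h than at 72 h. The higher set ran differently: the median of its 11 loci was 3.11, 20.7, 36.7, 11.7, 15.3 and 16.8 CPM over the 6 sampling times. In the single libraries it was 14.4, 18.6 and 16.9 CPM at 96 h, against 3.04, 2.45 and 2.46 CPM at 0 h. Because the sets were chosen by the 96 h and 0 h libraries, these values describe them and test nothing.

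**Figure D2:**
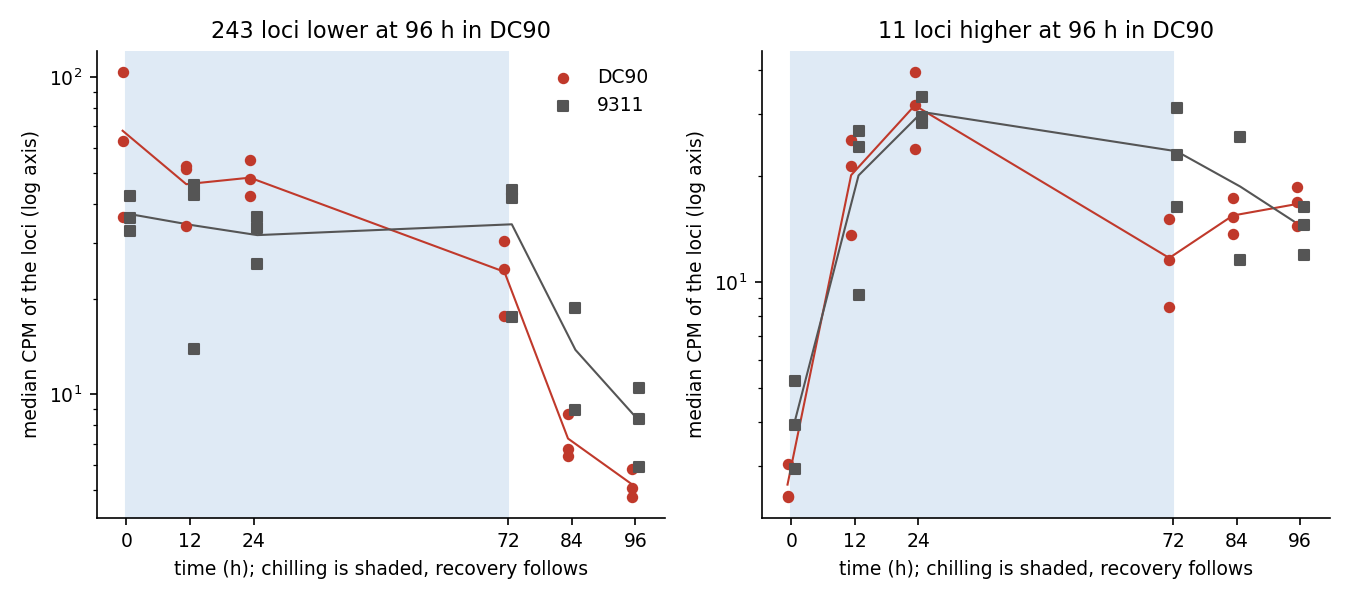
Median CPM (log axis) of the 243 lower DEGs (left) and the 11 higher DEGs (right) against time in hours; each point is 1 library, red circles are DC90, grey squares are 9311, lines join the group means and the shading is the chilling period. The lower set in DC90 sits between 4.76 and 5.80 CPM at 96 h and between 36.4 and 104 CPM at 0 h, and the higher set between 14.4 and 18.6 CPM at 96 h.

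The same direction was seen in 9311, whose libraries are not part of the DC90 contrast. They did enter the filter, the scaling and the shared estimate of the spread by which the DC90 loci were called. Of the 243 lower DEGs of DC90, 241 had a negative log2 fold change in 9311, 152 were lower there at an adjusted p of at most 0.05 (against 1.66% of all loci tested, and between 71 and 123 with 1 library of 9311 left out) and 40 were DEGs there. The 40 make up 16.5% of the DC90 list and 88.9% of the 45 lower DEGs of 9311 (0.196% of loci tested), and all 45 were lower in DC90 at an adjusted p of at most 0.05. The 45 also stayed lower at 0.05 in 9311 in each fit that left out 1 of its 6 libraries, although 2 lower and 9 higher DEGs were past the DEG thresholds without 96 h replicate 1, and 1 lower and 3 higher without 96 h replicate 2. The median of the 243 was -3.58 in DC90, by which they were selected, and -2.02 in 9311. Although 233 of the 243 had the smaller change in 9311, the test of the difference between the genotypes called none of them: the smallest adjusted p among them was 0.133, and 143 had an unadjusted p under 0.05. DESeq2's Wald test called 34 of the 243 for that difference, and limma called none. Over all 22961 loci tested, 2106 had an unadjusted p under 0.05 for it by edgeR, and DESeq2 called 219 loci. The difference contains the DC90 change by which the 243 were selected, which favours a smaller change in 9311 and small p-values. The counts of 233, 143 and 34 therefore describe the 243 and test nothing. The median CPM of the lower set in 9311 was 5.89, 8.37 and 10.5 at 96 h, against 36, 32.8 and 42.3 at 0 h. Of the 11 higher DEGs, 10 had the same sign in 9311, 6 were called higher there (background 0.971%), 1 was called lower, and 2 were DEGs there (18.2% of the 11 and 22.2% of the 9 higher DEGs of 9311, which are 0.0392% of loci tested).

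The DREB1 factors, which bind the promoters of cold-responsive genes and are the best-known early regulators of the cold response, had the lowest median of the lists counted here. All 6 members tested fell, with a median log2 fold change of -6.26, and 4 of the 6 fell in 9311. DREB1G (LOC_Os02g45450) was at 0, 0.240 and 0.805 CPM at 96 h, against 85.2, 150 and 19.3 CPM at 0 h. Every 96 h library was thus below every 0 h library, and the log2 fold change was -7.90 ± 1.17 (SE, n = 3 each, adjusted p = 6.9e-05). In DREB1E (LOC_Os04g48350) the values were 0, 0 and 0.345 CPM at 96 h, against 22.3, 24.5 and 4.72 CPM at 0 h (-7.18 ± 1.30, adjusted p = 0.00069). DREB1C (LOC_Os06g03670) was at 0.0503, 0.632 and 0.115 CPM, against 11.8, 53.6 and 3.44 CPM (-6.39 ± 1.09, adjusted p = 0.00037). In all 3 genes 0 h replicate 3 was the lowest of its group, and the groups were separate.

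DREB1A, DREB1H and DREB1B are neighbours in the numbering of chromosome 9 (LOC_Os09g35030, LOC_Os09g35020 and LOC_Os09g35010). DREB1B was at 0.276, 4.78 and 0.368 CPM at 96 h, against 238, 138 and 8.47 CPM at 0 h (-6.14 ± 1.25, adjusted p = 0.0022). DREB1A was at 6.21, 12.9 and 5.08 CPM at 96 h, against 127, 93.9 and 19.7 CPM at 0 h (-3.31 ± 0.75, adjusted p = 0.0059). In 9311 its change was -0.82 with an adjusted p of 0.7. DREB1H (-4.57 ± 1.19) had an adjusted p of 0.018 but lost its call in 3 of the 6 fits that left out 1 library (up to 0.089). Over the time course DREB1A averaged 80.0, 263, 161, 11.9, 15.1 and 8.07 CPM over the 6 sampling times in DC90. DREB1G had its highest DC90 mean at 0 h (84.7 CPM) and averaged 60.3 CPM at 12 h. Neither mean at 12 h was called different from 0 h (DREB1A 1.72, adjusted p = 0.067, and DREB1G -0.49, adjusted p = 0.71), and the difference between the members was not tested.

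**Figure D3:**
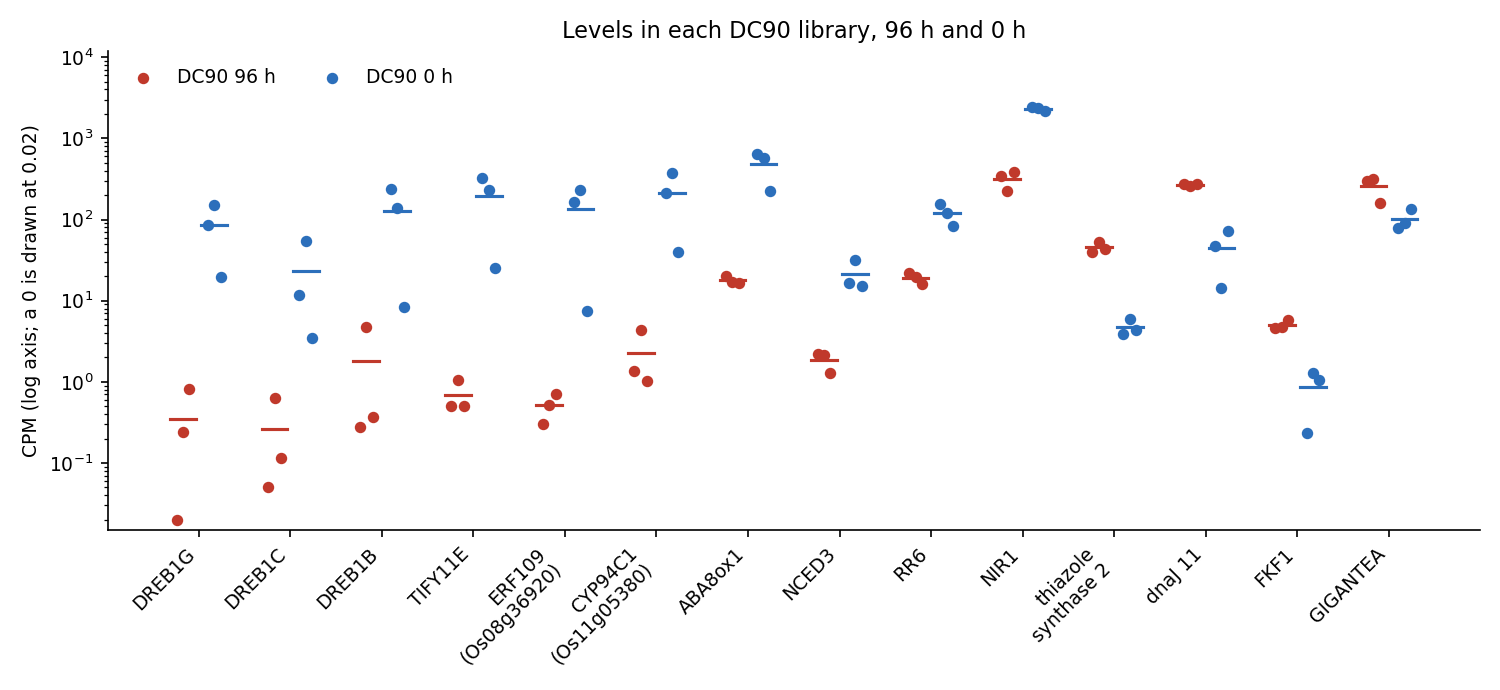
Level of 14 genes in each DC90 library, in CPM on a log axis; red points are the 3 libraries at 96 h, blue points the 3 at 0 h, bars are group means and a value of 0 is drawn at 0.02. From DREB1G to NIR1 all red points lie below all blue points (DREB1G at 0.805 CPM or less at 96 h and at 19.3 CPM or more at 0 h), and in the 4 genes on the right they lie above.

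Among genes that make jasmonate, inactivate it or repress its responses, those called were lower at 96 h, and the allene oxide synthase and CYP94 loci below were named after their values had been seen. JAZ proteins repress jasmonate responses and are themselves induced by the hormone: 7 of 12 tested fell, none rose, and the median was -1.95. TIFY11E (LOC_Os10g25230), a JAZ protein, was at 0.503, 1.05 and 0.506 CPM at 96 h, against 324, 233 and 25.1 CPM at 0 h. The lowest 0 h library was still far above the highest at 96 h, and the log2 fold change was -8.13 ± 1.01 (adjusted p = 1.3e-05), with -5.75 in 9311. TIFY11A (LOC_Os03g08310) had 0.151, 0.327 and 0.253 CPM, against 26.6, 31.4 and 3.45 CPM (-6.37 ± 0.86, adjusted p = 2.5e-05). The other members called were TIFY11B, TIFY11D, TIFY11C, TIFY10A and TIFY10B, with log2 fold changes of -5.16, -4.66, -2.98, -2.60 and -1.30. TIFY11B lost its call in 4 of the 6 fits that left out 1 library (adjusted p up to 0.10), and the other 6 kept theirs in every such fit. In 9311, 5 of the 12 fell.

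Upstream of the hormone, allene oxide synthase makes the first dedicated intermediate of jasmonate, and lipoxygenases oxidise the fatty acid it is made from. Allene oxide synthase 1 (LOC_Os03g55800) was at 28.7, 29.9 and 22 CPM at 96 h, against 154, 160 and 77.3 CPM at 0 h (-2.28 ± 0.31, adjusted p = 3.1e-05), and allene oxide synthase 2 (LOC_Os03g12500) had a log2 fold change of -3.19 ± 0.69 (adjusted p = 0.0038). Of 11 lipoxygenases, 3 fell (27.3%, against 4.74% of all loci). LOC_Os04g37430, annotated as lipoxygenase 5, was at 15.2, 16.0 and 20.9 CPM, against 203, 221 and 131 CPM (-3.41 ± 0.37, adjusted p = 2.5e-06), while CM-LOX1 (LOC_Os08g39840, -4.30) lost its call in 3 of the 6 fits that left out 1 library (adjusted p up to 0.11). In Arabidopsis the CYP94B3 and CYP94C1 enzymes inactivate the active form of the hormone, and loci annotated with these names fell as well. CYP94C1 LOC_Os11g05380 was at 1.36, 4.38 and 1.03 CPM, against 215, 377 and 39.3 CPM (-6.54 ± 0.87, adjusted p = 2.2e-05), with -6.11 in 9311. CYP94C1 LOC_Os12g05440 changed by -4.59 and CYP94B3 LOC_Os11g29290 by -4.31, the second losing its call without 96 h replicate 1 (adjusted p = 0.060).

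ABA, the hormone that closes stomata under water shortage, likewise had both synthesis and breakdown genes lower. In the list of 8 synthesis and breakdown genes tested, 4 fell, none rose and the median was -1.88. All 4 kept the call in every fit that left out 1 library, and in 9311 5 of the 8 fell and 1 rose. ABA8ox1 (LOC_Os02g47470), an enzyme that breaks ABA down, was at 20, 17.0 and 16.4 CPM at 96 h, against 648, 567 and 227 CPM at 0 h. All 3 libraries at 96 h were below all 3 at 0 h, and the change was -4.75 ± 0.56 (adjusted p = 8.4e-06) in DC90 and -4.30 in 9311. NCED enzymes carry out the rate-limiting step of ABA synthesis. NCED3 (LOC_Os03g44380) was at 2.19, 2.12 and 1.29 CPM, against 16.6, 31.9 and 15.0 CPM (-3.50 ± 0.44, adjusted p = 1.3e-05). NCED4 (LOC_Os07g05940) was at 0, 0.763 and 0.897 CPM, against 10.7, 19.4 and 5.65 CPM (-4.41 ± 1.01, adjusted p = 0.0068). NCED5 (LOC_Os12g42280) was at 1.89, 2.05 and 1.98 CPM, against 5.97, 10.4 and 11.5 CPM (-2.24 ± 0.51, adjusted p = 0.0065). No 96 h library of these 4 genes reached the lowest 0 h library.

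The ABA genes differed over the time course. NCED3 averaged 21.2, 189, 64.9, 9.99, 1.51 and 1.86 CPM over the 6 sampling times in DC90, and 14.8, 85.9, 14.5, 4.6, 2.89 and 2.44 CPM in 9311. NCED5 averaged 9.29, 130, 74.2, 27.0, 5.96 and 1.97 CPM in DC90. Both means were thus highest at 12 h of chilling and below the control mean in recovery, although NCED5 at 84 h was not called (-0.65, adjusted p = 0.44). ABA8ox1 averaged 480, 566, 291, 65.5, 22.8 and 17.8 CPM, so that its mean was highest at 12 h and below the control mean from 24 h on. It was called different from 0 h at 72, 84 and 96 h, but not at 12 h (adjusted p = 0.76) or 24 h (adjusted p = 0.24). Of the 6 genes that the study names for ABA and recovery, a list chosen on these samples and so no independent evidence, 3 fell: NCED3, NCED5 and ABA8ox1. The 3 that did not pass were LOC_Os09g29710, an EG45-like domain protein (0.00, adjusted p = 1.0), LOC_Os01g40870, an aldehyde dehydrogenase (-2.83, adjusted p = 0.067, and -0.36 without 0 h replicate 3), and GS2 (LOC_Os04g56400), the chloroplast glutamine synthetase (-1.0, adjusted p = 0.49).

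Further along the ABA pathway, protein phosphatases 2C, a family that includes the negative regulators of ABA signalling, had 11 of 84 members lower and none higher (13.1% lower, against 4.74% of all loci), with a median of -0.13. Of the 11, 6 kept the call in every fit that left out 1 library, and without 0 h replicate 3 the count was 9 lower. The largest fall was LOC_Os09g15670, annotated as phosphatase 68, at 2.09, 4.23 and 2.69 CPM at 96 h, against 67.7, 28.9 and 27.5 CPM at 0 h (-3.78 ± 0.59, adjusted p = 0.00014). Dehydrins and other LEA proteins, which protect drying cells, had 2 lower and 2 higher of 50 (4% each, against 4.74% and 1.6% of all loci). The senescence-associated LEA protein LOC_Os01g21250 was at 22.3, 22.8 and 32.3 CPM, against 542, 520 and 159 CPM (-3.98 ± 0.64, adjusted p = 0.00018). LEA19 (LOC_Os05g46480) was at 2.49, 10.2 and 0.644 CPM, against 0.172, 0.187 and 0.533 CPM (3.85 ± 0.88), and lost its call without 96 h replicate 2, its highest library (adjusted p = 0.13). RAB16B (LOC_Os11g26570) had 13, 15 and 0 counts at 96 h and 0 counts in each 0 h library, too few for a fold.

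Most transcription factor families had more falls than rises, as had all loci tested (1089 to 368). Of 90 WRKY factors, a family that acts in defence and stress, 27 fell and 1 rose (30% lower), with a median of -0.60. Of the 27, 16 were DEGs, 19 kept the call in every fit that left out 1 library, and without 0 h replicate 3 the counts were 24 lower and 0 higher. WRKY24 (LOC_Os01g61080) was at 3.09, 6.54 and 4.30 CPM at 96 h, against 526, 255 and 80.4 CPM at 0 h (-5.95 ± 0.71, adjusted p = 8.8e-06). LOC_Os08g29660, annotated as WRKY 53, was at 3.74, 3.01 and 3.91 CPM, against 395, 71.9 and 65.7 CPM (-5.64 ± 0.81, adjusted p = 4.8e-05). LOC_Os02g26430, annotated as WRKY 11, had 0 counts in all 3 libraries at 96 h, against 298, 265 and 25 counts at 0 h, which is at least 58.7-fold lower when 3 counts per library are taken as the floor. In 9311, 11 of the 90 WRKY factors fell.

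The AP2/ERF family, to which the DREB1 factors belong, had 33 of 115 members lower and 1 higher (28.7% lower, median -0.47), the 6 DREB1 factors included, and without 0 h replicate 3 the counts were 28 lower and 0 higher. LOC_Os08g36920, annotated as ERF109, was at 0.302, 0.523 and 0.713 CPM at 96 h, against 166, 231 and 7.56 CPM at 0 h (-8.03 ± 1.16, adjusted p = 5.2e-05). Its 0 h libraries spanned a wide range, with replicate 3 by far the lowest, and still did not meet the 96 h libraries. LOC_Os10g41330, another factor of the family, was at 3.09, 4.36 and 3.17 CPM, against 569, 53.2 and 147 CPM (-6.18 ± 0.88, adjusted p = 4.3e-05). LOC_Os01g66270, annotated as ERF020, had 0 counts in all 96 h libraries, against 139, 262 and 22 counts, at least 41.8-fold lower, or 23.9-fold without 0 h replicate 2.

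NAC factors, many of which act in drought and senescence, had 14 of 91 members lower and 1 higher (15.4% lower, median -0.41). NAC067 (LOC_Os07g12340), known for its response to salt and drought, was at 6.99, 9.92 and 3.89 CPM, against 415, 130 and 95.5 CPM (-4.94 ± 0.60, adjusted p = 9.6e-06). LOC_Os01g64310, annotated as NAC 90, changed by -4.54 ± 0.67 (adjusted p = 6.9e-05). MYB factors had 16 lower and 3 higher of 202, a share of 7.92% lower that is nearer to the 4.74% of all loci, and 11 lower and 6 higher without 0 h replicate 3. MYB2 (LOC_Os01g19330) was at 0.0754, 0.741 and 0.161 CPM, against 18.7, 4.90 and 2.68 CPM (-4.73 ± 0.85, adjusted p = 0.00068). The bHLH factor LOC_Os04g23550, annotated as bHLH35, was at 0.276, 0.916 and 1.15 CPM, against 111, 163 and 21.9 CPM (-6.97 ± 0.92, adjusted p = 2.1e-05).

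Zinc finger proteins of the C2H2 class had 6 lower and 1 higher of 32 (18.8% and 3.12%, against 4.74% and 1.6% of all loci). ZFP36 (LOC_Os03g32230), which acts in ABA-induced antioxidant defence in rice, was at 0.427, 0.741 and 0.460 CPM, against 121, 40.1 and 9.66 CPM (-6.70 ± 0.84, adjusted p = 1.3e-05). LOC_Os03g55540, annotated as zinc finger protein 1, was at 25.7, 25.6 and 29.4 CPM, against 1770, 393 and 456 CPM (-5.02 ± 0.67, adjusted p = 2.4e-05). Heat stress transcription factors had 7 of 25 lower and none higher (28% lower, median -0.36), of which 3 kept the call in every fit that left out 1 library. HSFA2D (LOC_Os03g06630) was at 27.0, 4.80 and 33.9 CPM, against 156, 67.3 and 180 CPM (-2.62 ± 0.52, adjusted p = 0.0018). In both its groups replicate 2 was the lowest.

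Some signalling proteins that act ahead of such factors fell too, although most members of each list did not pass the test. The lists used here, of calcium sensors, kinases, VQ proteins, ubiquitin ligases, C2H2 zinc fingers, NDR1/HIN1-like proteins and DnaJ proteins, were drawn up after the values had been seen and describe the loci only. Of 50 calcium-binding and calmodulin-like proteins, 17 fell and none rose (34% lower, median -0.89). The calcium-binding protein KIC (LOC_Os06g46950) was at 6.41, 8.72 and 6.48 CPM at 96 h, against 1070, 393 and 138 CPM at 0 h (-6.21 ± 0.68, adjusted p = 2.5e-06), with -4.04 in 9311. The calcium-binding protein CP1 (LOC_Os03g19720) changed by -4.61 ± 0.59 (adjusted p = 1.4e-05). In both genes the 3 libraries at 96 h were close together, and those at 0 h were widely spread.

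Of 50 members of the MAP kinase cascade, which relays stress signals by successive phosphorylation, 10 fell (20%) and 1 rose (2%). Of all loci 4.74% fell and 1.6% rose. LOC_Os01g50420 and LOC_Os01g50410, next to each other in the locus numbering and both annotated as MAPKKK 17, changed by -6.64 ± 0.87 and -6.38 ± 0.65. The first was at 0.880, 3.42 and 0.989 CPM, against 368, 134 and 30.1 CPM, and the second at 1.66, 3.18 and 2.05 CPM, against 300, 223 and 53.1 CPM. Since how reads shared by similar copies were counted is not given in the sources used here, the split between these neighbours is uncertain. MPK5 (LOC_Os03g17700), a stress-responsive MAP kinase of rice, was at 8.22, 9.62 and 8.81 CPM, against 183, 105 and 40.6 CPM (-3.63 ± 0.49, adjusted p = 2.5e-05).

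VQ motif proteins, which bind WRKY factors, had 12 of 29 members lower and none higher (41.4% lower, median -1.08). LOC_Os06g33970, annotated as VQ 10, was at 0.276, 0.371 and 0.345 CPM, against 54.8, 27.6 and 3.48 CPM (-6.42 ± 0.86, adjusted p = 2.5e-05). RING-H2 ATL and U-box ubiquitin ligases, which mark proteins for destruction, had 31 of 180 lower and 4 higher (17.2% lower). The ligase ATL31 (LOC_Os02g52210) was at 4.12, 5.80 and 10.8 CPM, against 589, 506 and 163 CPM (-5.92 ± 0.77, adjusted p = 1.9e-05). Of 19 NDR1/HIN1-like proteins, named after a defence gene of Arabidopsis, 4 fell (21.1%) and none rose. All 4 kept the call in every fit that left out 1 library.

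**Figure D4:**
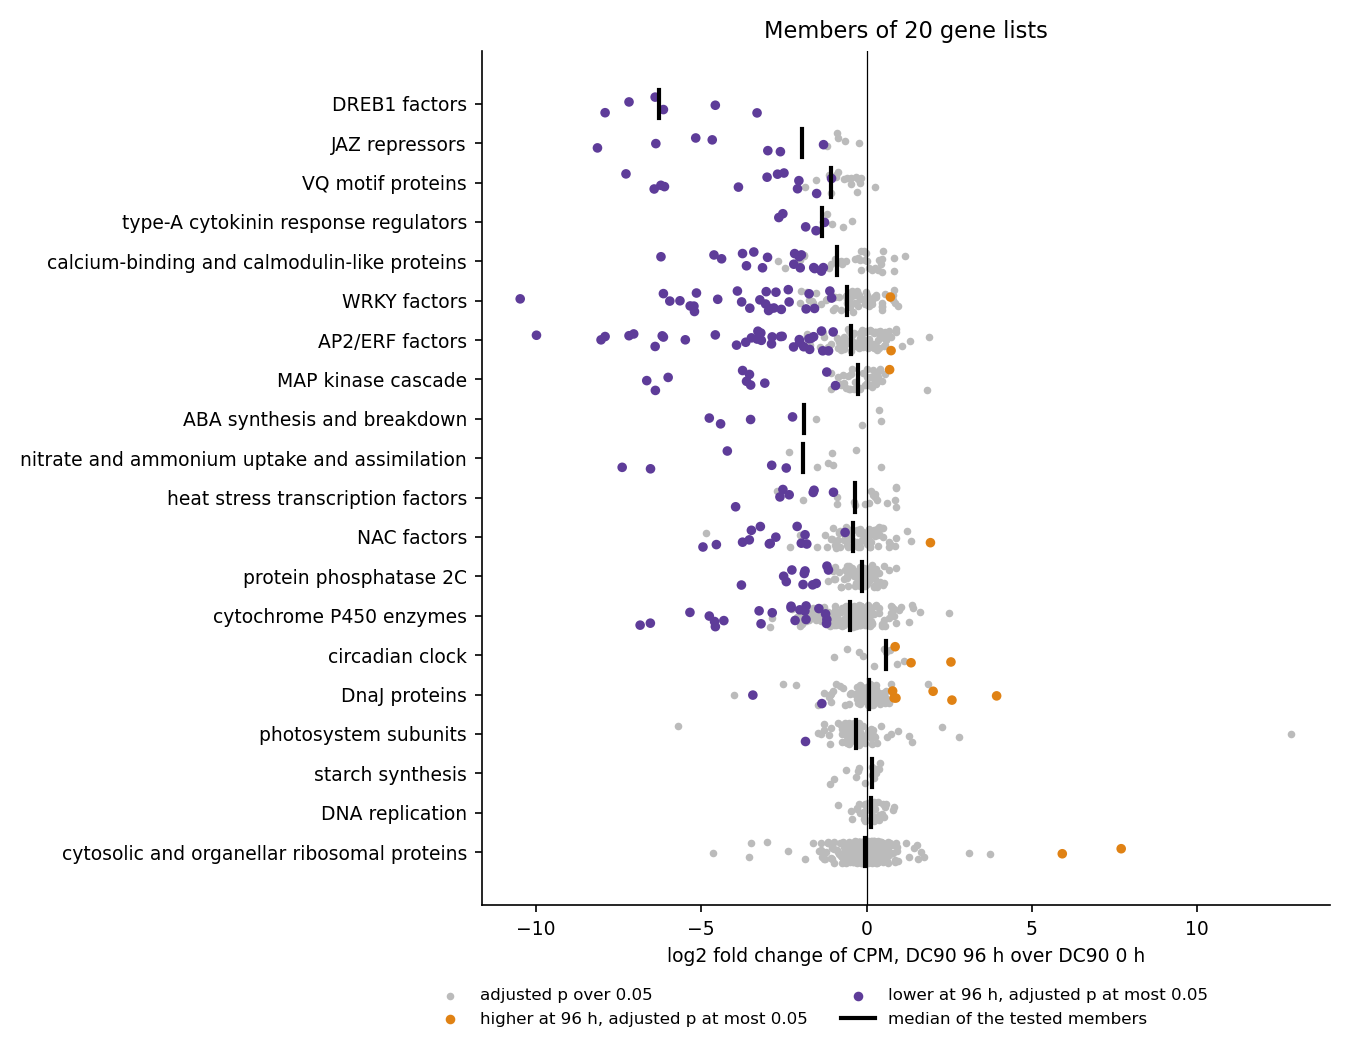
Log2 fold change of 96 h over 0 h in DC90 (horizontal axis) for the members of 20 gene lists (rows); each point is 1 locus tested, coloured where its adjusted p is at most 0.05 and grey otherwise, and black bars are medians. All 6 DREB1 factors lie left of 0 and are coloured, with a median of -6.26, whereas no starch synthesis or DNA replication gene is coloured.

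Type-A response regulators, which are induced by cytokinin and damp its signal, had 5 of 10 members lower and none higher (median -1.35), and 3 of 10 lower without 0 h replicate 3. RR6 (LOC_Os04g57720) was at 21.9, 19.4 and 16.2 CPM at 96 h, against 157, 120 and 84.3 CPM at 0 h (-2.65 ± 0.22, adjusted p = 1.1e-07), and changed by -2.43 in 9311. Its DC90 means were 120, 23.8, 43.5, 13.4, 17.9 and 19.2 CPM over the 6 sampling times. Every mean after 0 h was thus below the 0 h mean. RR9 (LOC_Os11g04720) was at 16.0, 11.3 and 20.3 CPM, against 85.0, 139 and 50.5 CPM (-2.53 ± 0.47, adjusted p = 0.00082), and 4 of the 10 fell in 9311.

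Among 102 auxin response genes 10 fell and 2 rose (9.8% lower, median -0.13). SAUR71 (LOC_Os03g45850), one of the small proteins that auxin induces, had 0 counts in all libraries at 96 h, against 206, 52 and 9 counts at 0 h, at least 27.0-fold lower, or 8.73-fold without 0 h replicate 1, its highest library. SAUR39 (LOC_Os09g37330), which in rice restrains auxin synthesis and transport, went the other way and was the largest rise of the 7 described DEGs named by rule. It was at 10.0, 8.18 and 11.8 CPM, against 1.06, 0.498 and 1.41 CPM (3.33 ± 0.49, adjusted p = 6.8e-05), with 2.13 in 9311 (adjusted p = 0.012).

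Some genes of nitrogen uptake and assimilation fell, and the count depended on the library that stood apart. Of 12 genes for nitrate and ammonium uptake and assimilation, 5 fell and none rose with all libraries, and 2 fell without 0 h replicate 3. NIR1 (LOC_Os01g25484), the chloroplast nitrite reductase, was at 341, 223 and 388 CPM at 96 h, against 2400, 2340 and 2190 CPM at 0 h. Its 3 control libraries were almost equal, replicate 3 included, and it changed by -2.87 ± 0.51 (adjusted p = 0.00055), with -1.65 in 9311 (adjusted p = 0.067). The ammonium transporter AMT1;1 (LOC_Os04g43070) was at 57.9, 53.5 and 88.5 CPM, against 477, 250 and 348 CPM (-2.43 ± 0.57, adjusted p = 0.008, and 0.056 without 96 h replicate 2). NIA1 (LOC_Os08g36500), nitrate reductase, was at 15.1, 46.2 and 32.7 CPM, against 809, 101 and 828 CPM (-4.21 ± 1.13, adjusted p = 0.022, over 0.05 in 5 of the 6 fits with 1 library left out, up to 0.11). NAR2.1 (LOC_Os02g38230), at 0.754, 0.567 and 0.874 CPM against 1.83, 1.66 and 200 CPM, owed its call to 0 h replicate 3: the log2 fold change was -6.53 with that library and -1.25 without it (adjusted p = 0.45). NRT2.2, a nitrate transporter, was at 57.4 CPM in that library and at 0.327 CPM or less in the other 5.

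Counts were small in other lists of supply genes, beside 4.74% lower and 1.6% higher of all loci. IRO2 (LOC_Os01g72370), a regulator of iron uptake, was the only one of 9 iron genes called, at 0.276, 0.174 and 0.161 CPM against 103, 71.5 and 7.28 CPM (-8.20 ± 2.01, adjusted p = 0.011, over 0.05 in 3 of the 6 fits with 1 library left out, up to 0.069). Of 50 phosphate genes 2 fell (4%) and 1 rose (2%). In carbohydrate metabolism, BAMY2 (LOC_Os03g04770), a beta-amylase of starch breakdown, was at 63.9, 56.4 and 102 CPM, against 1060, 721 and 453 CPM (-3.33 ± 0.53, adjusted p = 0.00015). RFS (LOC_Os01g07530), raffinose synthase, was at 25.7, 26.1 and 35 CPM, against 190, 139 and 176 CPM (-2.54 ± 0.46, adjusted p = 0.00074). TPP1 (LOC_Os02g44230), which makes trehalose from its phosphate, was at 5.73, 4.06 and 4.39 CPM, against 27.6, 28 and 15.8 CPM (-2.33 ± 0.36, adjusted p = 0.00013). These were single members: 2 of 18 amylases (11.1%), 1 of 9 raffinose genes (11.1%) and 2 of 20 trehalose genes (10%) fell. In addition, 1 trehalose gene rose (5%).

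Photosystem subunits gave few calls, while the summed leaf markers had lower values at 96 h. Of 73 photosystem subunits 1 fell (1.37%). The share lower was 16% in the antenna genes and 4.74% in all loci. Of 25 antenna genes 4 fell, among them the early light-inducible proteins LOC_Os01g14410, at 5.08, 4.40 and 5.06 CPM against 48.8, 48.9 and 29.3 CPM (-3.12 ± 0.44, adjusted p = 3.8e-05), and LOC_Os07g08160 (-3.80, adjusted p = 0.012, over 0.05 in 2 of the 6 fits with 1 library left out, up to 0.077), and the stress-enhanced protein LOC_Os04g54630, at 7.26, 6.06 and 11 CPM against 117, 63.0 and 53.8 CPM (-3.26 ± 0.59, adjusted p = 0.00071). These proteins protect the thylakoid under excess light. SGR (LOC_Os09g36200), which starts chlorophyll breakdown, was the only one of 6 breakdown genes called, at 7.34, 6.54 and 7.13 CPM against 45.6, 30.0 and 35.9 CPM (-2.41 ± 0.56, adjusted p = 0.0073).

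Genes of growth gave calls at shares near or below those of all loci (4.74% lower and 1.6% higher). Of 150 cyclins and kinesins 3 fell (2%) and 2 rose (1.33%). Of 53 expansins and xyloglucan endotransglucosylases, which loosen the cell wall, 3 fell (5.66%) and 1 rose (1.89%). Of 22 cellulose synthases 1 fell (4.55%), and none without 0 h replicate 3. Of these, LOC_Os04g51460 was at 4.17, 4.12 and 4.51 CPM, against 55.1, 68.1 and 29.4 CPM (-3.57 ± 0.56, adjusted p = 0.00015). Of 443 ribosomal proteins 2 rose and none fell, and 1 of these rises, LOC_Os07g42950, was at 21.3 CPM in 96 h replicate 2 and at 0.0754 CPM or less in each other library. Of 375 pentatricopeptide repeat proteins, which process organelle RNA, 7 fell (1.87%) and 2 rose (0.533%).

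Several groups had no member called by edgeR. Among the 55 core histones, the largest such list, 2 had an unadjusted p under 0.05, and DESeq2 called 1 higher. Of 34 DNA replication genes 2, and of 15 starch synthesis genes 2, had an unadjusted p under 0.05, and DESeq2 called none of the first and 1 of the second. Of 30 aquaporins, which pass water through membranes, 10 had an unadjusted p under 0.05 (8 of them with a lower and 2 with a higher value at 96 h), and DESeq2 called 2 lower. Of 16 sugar transporters and 11 chlorophyll synthesis genes, 2 each had such a p, and DESeq2 called 1 lower in each. Of 10 flowering time genes 6 had such a p, of 12 thionins 2, of 6 Rubisco small subunit and activase genes 1 and of 4 gibberellin genes 1, and DESeq2 called none of these. None of 6 diterpenoid phytoalexin genes or 5 membrane proteins of cold acclimation had one.

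Without 0 h replicate 3, small counts moved in further lists. NAC factors then had 14 falls and 3 rises, class III peroxidases 1 fall and 3 rises, pentatricopeptide repeat proteins 6 falls and 0 rises, LEA proteins 1 fall and 1 rise, and C2H2 zinc fingers 5 falls and 0 rises. Phosphate genes had 1 fall and 1 rise, lipoxygenases 3 falls and 1 rise, ribosomal proteins 2 falls and 2 rises, heat shock proteins 2 falls and 2 rises, cyclins and kinesins 3 falls and 1 rise, trehalose genes 3 falls and 1 rise, and expansins with xyloglucan endotransglucosylases 2 falls and 0 rises. Glutathione S-transferases had 2 falls and 1 rise, germin-like proteins 1 fall and 1 rise, and chlorophyll synthesis 1 rise. The photosystem subunits had no call left. The DREB1 and JAZ lists kept counts of 6 and 7 lower.

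Counts were small in several lists of defence proteins and detoxifying enzymes, beside 4.74% lower and 1.6% higher of all loci. Pathogenesis-related proteins and chitinases gave 3 falls and 3 rises of 96 (3.12% each), and class III peroxidases 1 fall and 1 rise of 79 (1.27% each). Germin-like proteins gave 1 fall of 30 (3.33%), and lipid transfer proteins no fall and 2 rises of 65 (3.08% higher). Whether these lists differ from each other was not tested. Phenylpropanoid enzymes had 7 of 70 lower and 1 higher (10% lower, against 4.74% of all loci), but none of the 7 kept the call in every fit that left out 1 library, and without 0 h replicate 3 the counts were 3 lower and 0 higher. Cytochrome P450 enzymes had 21 of 189 lower and none higher (11.1% lower), with 13 lower without 0 h replicate 3. Of 80 glutathione S-transferases 3 fell (3.75%), none in every fit that left out 1 library. A glycosyltransferase annotated as 73C1, on a locus added by the authors (Oryza_sativa_newGene_4710), had the largest fitted fall among the described DEGs, with 0, 1 and 0 counts at 96 h, against 824, 1300 and 677 counts at 0 h. It was at least 264-fold lower with the floor of 3 counts per library (adjusted p = 8.4e-06), and changed by -8.61 in 9311.

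DnaJ proteins, which assist the HSP70 chaperones, had more rises than falls. Of 90 DnaJ proteins 6 rose (6.67%, against 1.6% of all loci) and 2 fell (2.22%, against 4.74%), with 3 higher and 1 lower without 0 h replicate 3. Of these calls, 3 rises and 1 fall were kept in every fit that left out 1 library. In 9311, 3 of the 90 rose and 1 fell. The chloroplast DnaJ 11 (LOC_Os06g50230) was at 273, 259 and 270 CPM at 96 h, against 46.8, 14.5 and 72.5 CPM at 0 h. The 96 h libraries were nearly equal and all above the controls (2.58 ± 0.46, adjusted p = 0.0006), with 2.2 in 9311. Its DC90 means were 44.6, 125, 150, 37.5, 48.3 and 267 CPM over the 6 sampling times, so that its mean at 72 h was below that at 0 h and its highest mean was at 96 h. P58B (LOC_Os03g18870), a DnaJ protein of the P58IPK type, was at 8.90, 17.2 and 11.5 CPM, against 3.04, 3.30 and 2.98 CPM (2.01 ± 0.27, adjusted p = 2.5e-05). Its means of 3.11, 111, 212, 88.1, 64.4 and 12.5 CPM over the 6 time points ran otherwise, with the highest mean at 24 h of chilling. Of 32 cold shock and glycine-rich RNA-binding proteins 1 rose, by 0.67. Of 60 heat shock proteins 1 rose and 2 fell: HSC70-2 (LOC_Os03g16860), a constitutive chaperone, was at 121, 115 and 123 CPM, against 1330, 712 and 1090 CPM (-3.12 ± 0.60, adjusted p = 0.0012), and HSP16.9A (LOC_Os01g04370), a small heat shock protein, was at 2.01, 1.11 and 2 CPM, against 0.151, 0.228 and 0.0627 CPM (3.53 ± 0.80, adjusted p = 0.006).

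The rises at 96 h included genes that had been far higher in the cold. LOC_Os07g34570, annotated as thiamine thiazole synthase 2, which makes the thiazole part of vitamin B1, was at 39.8, 53.1 and 42.8 CPM at 96 h, against 3.88, 5.92 and 4.39 CPM at 0 h (3.26 ± 0.31, adjusted p = 5.3e-07), with 2.77 in 9311. Its DC90 means were 4.73, 1770, 3200, 952, 483 and 45.2 CPM over the 6 sampling times. The 9311 means were 6.64, 1880, 3020, 451, 403 and 45.2 CPM. In both genotypes the mean was lower at 96 h than in the cold and was still called higher than at 0 h. The CCCH zinc finger protein LOC_Os05g45020 was at 56.6, 72.4 and 62.5 CPM, against 15.6, 8.28 and 16.5 CPM (2.24 ± 0.41, adjusted p = 0.00071). The peroxidase LOC_Os12g02060 was at 2.74, 4.14 and 0.989 CPM, against 0.151, 0.457 and 0.235 CPM (3.21 ± 0.57, adjusted p = 0.0006), and had its highest DC90 mean at 84 h (4.33 CPM). Only 7 described DEGs rose under the rule for naming: these 3, SAUR39, both DnaJ proteins above and LOC_Os07g11000, described with the genotypes.

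Clock genes are of interest because both groups were taken at the same hour. Of 13 tested, 3 rose and none fell (23.1% higher, against 1.6% of all loci), with a median of 0.60. In 9311 none of the 13 was called, and their median was 0.32. A fit of the 6 DC90 libraries alone kept none of the 3 calls, and DESeq2 called 3 higher and 1 lower. FKF1 (LOC_Os11g34460), a blue light receptor that measures day length, was at 4.62, 4.78 and 5.73 CPM at 96 h, against 0.237, 1.29 and 1.04 CPM at 0 h (2.55 ± 0.57, adjusted p = 0.0055), and in 9311 it changed by 1.98 (adjusted p = 0.057). GI (LOC_Os01g08700), the clock protein GIGANTEA, was at 298, 312 and 160 CPM, against 79.1, 91.2 and 133 CPM (1.35 ± 0.29, adjusted p = 0.004). PRR73 (LOC_Os03g17570), a clock repressor, was at 322, 306 and 301 CPM, against 173, 186 and 150 CPM (0.87 ± 0.23, adjusted p = 0.02), but its adjusted p exceeded 0.05 in 4 of the 6 fits that left out 1 library, up to 0.091. In all 3 genes the 96 h libraries were above the 0 h libraries. The DC90 means of FKF1 were 0.853, 107, 144, 74.8, 23.5 and 5.04 CPM over the 6 time points, and those of GI 101, 825, 1210, 711, 311 and 257 CPM.

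Among light and flowering regulators, CCT and B-box factors gave 5 falls and 3 rises of 47 (10.6% and 6.38%, against 4.74% and 1.6% of all loci). There were 2 falls and 2 rises without 0 h replicate 3, and by limma 5 falls with 5 rises on log2(FPKM + 1) or 6 on log2(FPKM + 0.1). LOC_Os08g15050, annotated as CONSTANS-like 5, was at 14.6, 13.3 and 13.3 CPM, against 158, 157 and 177 CPM (-3.58 ± 0.45, adjusted p = 1.4e-05). Its 6 values form a pair of narrow, separate groups. Its DC90 means were 164, 48.5, 7.10, 6.15, 1.48 and 13.7 CPM over the 6 sampling times. Its lowest mean was at 84 h, whereas 177 of the 243 lower DEGs were lowest at 96 h.

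The response to the treatment was tested for a difference between the genotypes over all loci, and 3 of 22961 were called (0.0131%), while 2106 had an unadjusted p under 0.05. LOC_Os07g11000, annotated as Mediator subunit 33A, part of the complex that links transcription factors to RNA polymerase II, was the single DEG of DC90 called in the other direction in 9311. In DC90 it was at 68.6, 102 and 67.6 CPM at 96 h, against 16.5, 13.2 and 26.6 CPM at 0 h (2.08 ± 0.32, adjusted p = 0.00012). In 9311 it was at 22.5, 22.4 and 20.8 CPM at 96 h, against 78.0, 67.6 and 68.4 CPM at 0 h (-1.70, adjusted p = 0.003). The groups were separate in both genotypes and in opposite order, and the difference between the changes was 3.78 ± 0.45 (adjusted p = 0.00016). LOC_Os09g20330, annotated as annexin D2, a calcium-dependent membrane-binding protein, was at 1.03, 0.262 and 0.414 CPM at 96 h, against 0.539, 0.706 and 0.565 CPM at 0 h in DC90 (-0.09 ± 0.75, adjusted p = 0.97). In 9311 it was at 17.9, 33.2 and 23 CPM, against 0.145, 0.257 and 0.0837 CPM (difference -7.30, adjusted p = 0.013). In the cold it was high in both, at 45.7 CPM in DC90 and 46.4 CPM in 9311 at 72 h. At 96 h all 3 libraries of 9311 were above their controls, as was replicate 1 of DC90. The call was lost in 4 of the 12 fits that left out 1 library (adjusted p up to 0.11), whereas that of LOC_Os07g11000 was kept in all 12 (at most 0.0017).

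Lower DEGs lay near each other in the locus numbering more often than tested loci in general. Of the 242 lower DEGs with a chromosome locus number, 41 (16.9%) had another lower DEG within 5 steps of the locus numbering, against 5.28% of 22331 tested loci that had a lower DEG as near. LOC_Os01g50420 and LOC_Os01g50410 are such a pair. The JAZ neighbours do not pair in that count. TIFY11A (LOC_Os03g08310) is a DEG, but TIFY11C (LOC_Os03g08320) and TIFY11B (LOC_Os03g08330) fell without being DEGs. TIFY11E (LOC_Os10g25230) and TIFY11D (LOC_Os10g25290) are both DEGs but lie just outside the 5 steps. Reads shared by such related neighbours may be divided between them by the counting, so their values are not independent.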

How the data were processed

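Whole-plant RNA was sequenced as paired-end reads from 3 biological replicates per group (2 libraries for 9311 at 84 h), which the authors mapped to the rice genome of the Rice Genome Annotation Project (Release 7) by HISAT2 and deposited as raw counts per locus, beside FPKM values computed by the authors. The ratio of FPKM to counts between 2 libraries was not the same for every locus, so the FPKM, on which the filter and limma rest, do not follow from depth and a fixed length alone. The tool that counted reads, how multi-mapped reads were treated and whether strand was used are not given in the sources used here, so near-identical and overlapping loci are uncertain. The table held 57778 loci, 1816 of them added by the authors, and all columns of libraries were used. Totals ran from 28004101 to 68927044 counts over all 35 libraries, and intervals or floors from them would cover counting error only.

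The deposited counts went into edgeR 4.0.16 (R 4.3.3): TMM scaling, 12 groups of genotype and time fitted together (estimateDisp, glmQLFit, glmQLFTest), and Benjamini-Hochberg adjustment over the 22961 loci with a mean FPKM of at least 0.5. DEGs follow the thresholds of the study's methods. Folds are log2. Each standard error was computed from the fold and the quasi-likelihood F statistic, with the spread shared over the 35 libraries. It is uncertain where a group has almost no counts. The same fit gave 9311 and the difference between genotypes. The fit was also run on counts simulated with 200 changed loci. Those counts held no library that stood apart and no other group differences, so that run cannot vouch for the fit on these libraries. Alternatives were DESeq2 1.42.0 (size factors, and a Wald test), limma 3.58.1 on log2(FPKM + 1) and log2(FPKM + 0.1), other filters, fewer libraries, each library left out in turn and a replicate block.

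Genes named are the up to 10 largest described rises and falls among DEGs with separate groups and a mean FPKM of at least 1 in the higher group, up to 2 called members of each of 53 lists, and the 6 genes the study names for ABA and recovery. Further members of the DREB1, JAZ, NCED, P450, nitrogen, kinase and clock families, 7 further lists and the genes called for a genotype difference were added after their values were seen, and loci whose description went against a list were then removed. The members and lists were chosen with earlier results of these data known. Metabolites were not used here.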

Additional observations from a re-analysis of the deposited data

Results flagged for a closer look

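The 96 h change differed between DC90 and 9311 by the interaction term of edgeR's fit at 3 loci, with adjustment over all 22961. LOC_Os07g11000 (Mediator subunit 33A) had a difference of 3.78 on the log2 scale (DC90 change minus 9311 change, adjusted p = 0.00016), higher at 96 h in 3 of 3 DC90 libraries and lower in 3 of 3 libraries of 9311. LOC_Os09g20330 (annexin D2) had a difference of -7.30 (adjusted p = 0.013), with separate groups in 9311 and overlapping groups in DC90, and lost its call in 4 of the 12 fits that left out 1 library (adjusted p up to 0.11). LOC_Os01g09540, annotated as a stem 28 kDa glycoprotein, had a difference of -2.43 (adjusted p = 0.02), and lost its call in 7 of the 12 (adjusted p up to 0.13). It was at 133, 156 and 140 CPM at 96 h, against 275, 171 and 210 CPM at 0 h in DC90, and at 299, 440 and 275 CPM at 96 h, against 72.7, 109 and 107 CPM at 0 h in 9311. Its groups were separate and in opposite order in both genotypes, although its change in DC90 did not pass the test (-0.61, adjusted p = 0.25).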

How the results depend on the processing

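Lower loci outnumbered higher ones in DC90 in every alternative with over 2 calls, while the count moved. In place of 254 DEGs there were 551 (57 higher, 494 lower) by DESeq2's Wald test, 1193 (205 higher, 988 lower) at a log2 fold change of 1 and an adjusted p of 0.05, 2 (1 higher, 1 lower) in a fit of the 6 libraries alone, and from 95 to 278 with 1 library left out. In place of 1457 loci at an adjusted p of 0.05 there were 2221 by the Wald test, 725 in the fit of 6 libraries, and from 823 to 1336 with 1 left out, the lowest without 96 h replicate 2. In 9311, in place of 54 DEGs there were 217 by the Wald test, 84 and 88 by limma on log2(FPKM + 1) and log2(FPKM + 0.1), 528 at the lower thresholds, 1 in a fit of its 6 libraries, and from 4 to 27 with 1 left out, with more higher than lower without 96 h replicate 1 (9 to 2) or 96 h replicate 2 (3 to 1). The difference between genotypes was called at 219 loci by the Wald test, 5 by limma on log2(FPKM + 1), 5 with no filter on low values, and from 1 to 12 with 1 library left out, the 12 without DC90 0 h replicate 3. Size factors of DESeq2 and filters at a mean FPKM of 1 or 5 moved no count of DC90 by over 1.5 times. NRT2.2, at -7.39, ran from -12.69 to 1.34 with 1 library left out, and changed sign without 0 h replicate 3. Of 125 genes named or tabulated, 125 kept sign and call with DESeq2 size factors, 45 lost the call in the fit of 6 libraries and between 7 and 30 with 1 library left out. Same-numbered replicates of 96 h and 0 h deviated together only weakly (correlations of 0.046, 0.08 and 0.078), though each 96 h library correlated best with its own number. Whether the numbers pair the samples cannot be told from these values, and the main fit treated the samples as unpaired. With a replicate block there were 228 DEGs (9 higher, 219 lower), 1377 loci at 0.05, 48 DEGs in 9311, 3 differences between genotypes and 9896 loci between 96 h and 72 h, and with the block in the fit of 6 libraries 0 DEGs and 280 loci at 0.05. The 0 h libraries of DC90 differed by far more than counting error (a chi-square of 269 to 399 per locus between pairs), and depth was not tested as a limit.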
